A study of Mus musculus with 5 samples.

Results

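The nuclear genes of the oxidative phosphorylation complexes were followed across 5 RNA-seq libraries of sorted mouse bone marrow (BM) cells. The genes were taken by symbol: all symbols that begin with Nduf, Uqcr, Atp5 or Cox followed by a digit from 4 to 8, together with the Sdh genes a to d, Cyc1 and Cycs. This gave 92 of the 23234 genes listed. Of these, 84 encode subunits or cytochrome c, and 8 share a symbol prefix without encoding a subunit, namely the complex I assembly factors Ndufaf1, Ndufaf2, Ndufaf3 and Ndufaf4, the supercomplex factor Cox7a2l, Cox4nb (now Emc8, of the endoplasmic reticulum membrane complex), Atp5s and Atp5sl.

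Oxidative phosphorylation couples the transfer of electrons from NADH and succinate to oxygen with the synthesis of ATP in the inner mitochondrial membrane. Complexes I and II pass electrons to ubiquinone, complex III passes them on to cytochrome c, complex IV reduces oxygen, and complex V, the ATP synthase, uses the proton gradient built by complexes I, III and IV. Monocytes keep an active mitochondrial network, whereas mature neutrophils hold few mitochondria and are known for their reliance on glycolysis.

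All cells came from heterozygous Ym1-Venus mice (+/Ym1Venus, C57BL/6, 7 weeks of age), a reporter strain in which Venus fluorescence stands for Ym1 expression. Ly6C+CD115+ Ly6Chi monocytes were sorted 48 h after intravenous injection of 100 µg LPS per mouse as Venus+ cells (Ym1+ monocytes) and as Venus- cells (Ym1- monocytes), and as Venus- cells from untreated mice (naïve monocytes). Ly6G+ neutrophils were sorted 48 h after the same LPS treatment and from untreated mice (naïve neutrophils). Each condition was 1 library of an unstated number of mice, so no difference below has a replicate check and no test was made. In bulk libraries of this kind, fewer cells of a type and less RNA per cell cannot be told apart.

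Levels are given as FPKM, which counts fragments relative to the length of the transcript and the size of the library. Differences are those of log2(FPKM + 1) between a pair of libraries, for genes that reached 1 FPKM in either of the pair. From the steps between the lowest values, depth relative to the Ym1+ library was roughly 44.6% in the Ym1- library, 62.6% in naïve monocytes, 80.9% in neutrophils after LPS and 96.9% in naïve neutrophils. For a member of median transcript length, an FPKM of 100 then had a 95% Poisson interval of 88.8 to 112 in the Ym1- library and of 92.4 to 108 in the Ym1+ library, which covers counting error alone. The 7 monocyte markers summed to between 4466 and 5206 FPKM in the monocyte libraries and to 1659 or less in neutrophils, where Ly6c2 made up nearly all of it, and the 9 neutrophil markers summed to between 280007 and 291386 FPKM in neutrophils. In the Ym1+ library these neutrophil markers summed to 14040 FPKM, against 1950 FPKM in Ym1- monocytes. S100a8 and S100a9 alone took 27.7% and 30.0% of the FPKM of the LPS and naïve neutrophil libraries, which lowers the scale of every other gene there.

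Some members of different complexes share short sequences in their promoters, and the part of these sequences in the members' levels was not tested. RefSeq promoter sequences (build GRCm38.p6, 250 bases before to 50 after the start) were found for 75 members. The binding motif of NRF1, a factor known for its part in the transcription of respiratory genes, was searched as GCGCATGCG and its reverse complement CGCATGCGC. It was present in 10 of 75 members (13.3%) and in 2.61% of the promoters of 17492 coding genes. The YY1 motif AAGATGGCG was present in 8 members (10.7%, against 2.14% of coding genes), the ESRRA motif AAGGTCA in 8 (10.7%, against 4.73%) and the GABPA motif CCGGAAGT in 5 (6.67%, against 5.69%), each searched on both strands. A match is a description of these letters and not a bound site.

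The 180 bases before the start are printed 5′ to 3′ on the gene's strand for 1 member each of complexes I, III, IV and V and for cytochrome c. Capitals mark the NRF1 motif, or the GABPA motif in Uqcr11. In Ndufa11, Cox6a1 and Atp5g2 the 10 capitals hold the NRF1 motif on both strands with an overlap. They stand 60 bases before the start in Ndufa11, 61 in Cycs, 162 in Cox6a1, 42 in Atp5g2 and 66 in Uqcr11, whose NRF1 match lies across the start and is not shown.
Ndufa11, chr17:56717582-56717761, plus strand: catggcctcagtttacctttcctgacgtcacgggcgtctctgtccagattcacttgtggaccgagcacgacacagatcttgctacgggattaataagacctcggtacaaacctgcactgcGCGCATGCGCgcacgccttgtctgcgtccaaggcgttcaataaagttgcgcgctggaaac
Uqcr11, chr10:80406822-80407001, minus strand: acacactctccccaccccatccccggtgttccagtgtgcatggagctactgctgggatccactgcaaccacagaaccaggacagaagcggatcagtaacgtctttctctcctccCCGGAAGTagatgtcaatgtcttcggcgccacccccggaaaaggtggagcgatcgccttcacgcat
Cycs, chr6:50566570-50566749, minus strand: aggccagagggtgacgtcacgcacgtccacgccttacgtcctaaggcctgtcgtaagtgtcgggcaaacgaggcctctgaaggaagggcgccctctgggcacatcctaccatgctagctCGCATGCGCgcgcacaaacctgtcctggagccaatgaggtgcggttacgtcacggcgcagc
Cox6a1, chr5:115348959-115349138, minus strand: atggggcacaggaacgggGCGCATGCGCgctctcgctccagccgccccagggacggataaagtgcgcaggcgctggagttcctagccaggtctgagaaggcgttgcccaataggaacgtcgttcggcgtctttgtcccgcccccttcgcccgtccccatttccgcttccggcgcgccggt
Atp5g2, chr15:102671048-102671227, minus strand: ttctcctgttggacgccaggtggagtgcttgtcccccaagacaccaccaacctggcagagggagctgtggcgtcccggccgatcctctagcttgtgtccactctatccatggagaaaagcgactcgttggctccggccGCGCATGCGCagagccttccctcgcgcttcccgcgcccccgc

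The respiratory genes were highest in Ym1- monocytes after LPS and lowest in naïve neutrophils. Of the 92 members, 86 reached an FPKM of 1 in at least 1 library and 81 did so in all 5. Among these 86, 74 were highest in the Ym1- library, against 32.5% of all 11267 genes at that level, and 78 were lowest in naïve neutrophils, against 43.1% of genes. In 62 of the 86 the libraries stood in the order Ym1- monocytes, Ym1+ monocytes, naïve monocytes, LPS neutrophils and naïve neutrophils, an order found in 15.5% of genes. The median FPKM of the 86 was 149, 120, 97.7, 72.6 and 50.05 in that order, and neighbours in it cannot be separated beyond the spread of replicates, which was not measured. With TPM, a rescaling of each library to the same total, 61 members stood in this order (13.7% of genes did). With median-of-ratios scaling, which sets the typical gene to about equal levels in all libraries, it was found in 25 (10.9% of genes), and 58 members were highest in the Ym1- library (24.9% of genes) and 61 lowest in naïve neutrophils (34.0%). The order of the 3 monocyte libraries alone, Ym1-, Ym1+ and naïve, held for 71 members with FPKM and 72 with median-of-ratios scaling, against 23.4% of genes with each.

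The members' summed FPKM was 2.91% of the library total in Ym1- monocytes, 2.54% in Ym1+ monocytes and 2.19% in naïve monocytes. It was 1.02% in neutrophils after LPS and 0.773% in naïve neutrophils. With S100a8 and S100a9 left out of the totals these shares were 2.91%, 2.60%, 2.19%, 1.41% and 1.10%, so the order of these shares was the same.

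**Figure D1:**
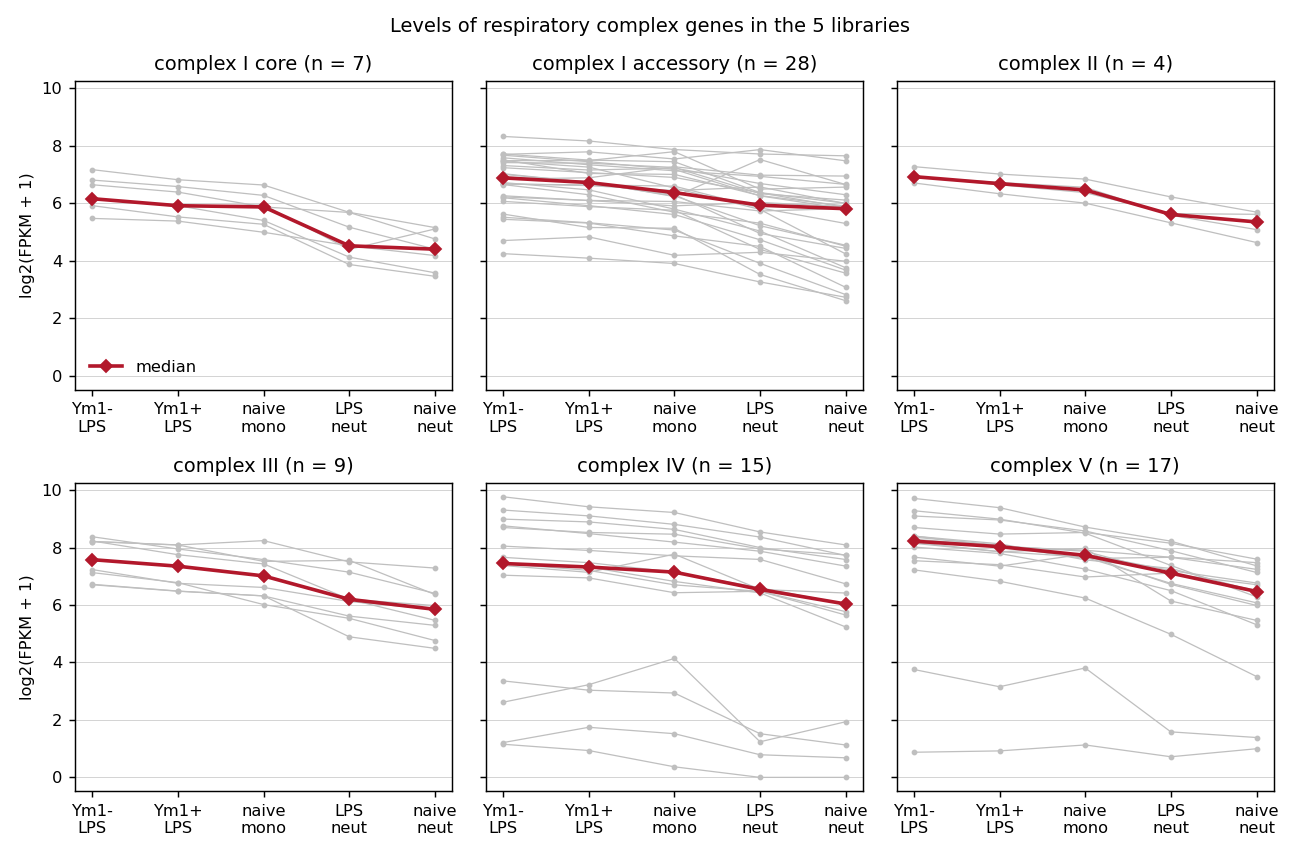
Log2(FPKM + 1) of the expressed members (grey, 1 line per gene) and their median (red) in the 5 libraries, with 1 panel for each complex; n is the number of genes. The medians are lower from left to right, in complex V from 298 FPKM in Ym1- monocytes to 87.7 FPKM in naïve neutrophils, and the low lines of complexes IV and V are tissue isoforms and genes that encode no subunit.

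The core of complex I carries out the oxidation of NADH and the reduction of ubiquinone, and its 7 nuclear-encoded subunits had the lowest levels per length among the complexes. Their median was 70.6 FPKM in Ym1- monocytes, 59.5 in Ym1+ monocytes, 57.7 in naïve monocytes, 22.0 in neutrophils after LPS and 20.2 in naïve neutrophils. Ndufv1, which binds NADH and the flavin, stood at 70.1, 59.5, 41.3, 16.5 and 11.0 FPKM in the same order. Ndufs1, the large iron-sulfur subunit, had the narrowest range of the core, from 43.5 FPKM in Ym1- monocytes to 17.2 in naïve neutrophils. Ndufs3, Ndufs8 and Ndufv2 followed the same order of libraries, and Ndufs7, an iron-sulfur subunit close to ubiquinone, left it, with 70.6, 58.7, 60.6, 20.0 and 33.5 FPKM.

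The accessory subunits of complex I surround the core and support its assembly and stability. Of 29 accessory genes, 28 were expressed, and their median ran from 117 FPKM in Ym1- monocytes and 105 in Ym1+ monocytes through 82.1 in naïve monocytes and 60.3 in neutrophils after LPS to 55.2 in naïve neutrophils. Their levels lay further apart from each other in neutrophils than in monocytes. In naïve neutrophils they ran from 5.10 FPKM for Ndufab1, the mitochondrial acyl carrier protein, to 200.4 for Ndufa3, and in naïve monocytes from 14.0 FPKM for Ndufa11 to 233 for Ndufa3. Ndufs5 was listed at no more than 0.00383 FPKM in every library, although its product is a structural subunit of the complex, and the cause was not tested.

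A few accessory genes kept monocyte-like levels in neutrophils. Ndufv3, a small subunit of the NADH-binding module, stood at 121 FPKM in Ym1- monocytes, 107 in Ym1+ monocytes, 74.3 in naïve monocytes, 183 in neutrophils after LPS and 99.6 in naïve neutrophils. It was the member with the highest difference from monocytes in both neutrophil libraries. Ndufb7, of the membrane arm, stood at 208, 221, 186, 233 and 177 FPKM in the same order, so the cell types overlapped. Ndufa13, also known as GRIM-19, stood at 75.9, 67.5, 59.2, 64.4 and 57.9 FPKM, and Ndufa1, needed for the membrane arm, at 114, 118, 154, 125 and 123 FPKM.

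The 4 assembly factors help to build complex I and are not part of the finished enzyme. Their median was 14.8 FPKM in Ym1- monocytes and 1.76 FPKM in naïve neutrophils. Ndufaf2, which is related in sequence to the accessory subunit Ndufa12, stood at 20.2 FPKM in Ym1- monocytes, 12.0 in Ym1+ monocytes, 5.75 in naïve monocytes, 2.23 in neutrophils after LPS and 0.206 in naïve neutrophils. These levels rested on about 47.9, 62.4, 18.8, 9.63 and 1.02 fragments, so the lowest of them is at the limit of detection.

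Complex II joins the tricarboxylic acid cycle to the respiratory chain, and its 4 genes lay close together within each library. Sdha, the flavoprotein that oxidizes succinate, stood at 120 FPKM in Ym1- monocytes, 105 in Ym1+ monocytes, 93.2 in naïve monocytes, 46.9 in neutrophils after LPS and 33.0 in naïve neutrophils. Sdhb, the iron-sulfur subunit, stood at 154, 129, 114, 73.7 and 50.8 FPKM. In FPKM, both neutrophil libraries were below all 3 monocyte libraries for all 4 genes, including the membrane anchors Sdhc and Sdhd. This was so for 59.5% of all genes. Sdhd differed little between the neutrophil libraries, at 48.9 FPKM after LPS and 48.1 in naïve cells. With median-of-ratios scaling Sdhd in naïve neutrophils was above naïve monocytes, by 0.08 on the log2 scale.

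Complex III passes electrons from ubiquinol to cytochrome c. The median of its 9 genes was 190 FPKM in Ym1- monocytes, 162 in Ym1+ monocytes, 128 in naïve monocytes, 72.4 in neutrophils after LPS and 56.7 in naïve neutrophils. Cyc1, the cytochrome c1 of the complex, stood at 139, 109, 63.7, 45.4 and 26.2 FPKM. The Rieske iron-sulfur gene Uqcrfs1 stood at 103, 88.3, 78.8, 28.7 and 21.5 FPKM. The hinge gene Uqcrh, at 295, 272, 302, 180 and 155 FPKM, had the highest mean of the complex over the 5 libraries, though not the highest level in each, and was the only gene of the complex that was highest in naïve monocytes. Cycs, the soluble electron carrier between complexes III and IV, stood at 112, 94.4, 56.0, 27.7 and 11.2 FPKM, which makes it 1 of the members with the widest range.

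Complex IV, cytochrome c oxidase, was represented by its nuclear-encoded subunits, as no mitochondrially encoded gene was found among the symbols. Cox4i1 was the most abundant member in all 5 libraries, with 872 FPKM in Ym1- monocytes, 684 in Ym1+ monocytes, 596 in naïve monocytes, 372 in neutrophils after LPS and 272 in naïve neutrophils. Cox5b stood at 632, 549, 447, 329 and 211 FPKM, and Cox6b1 at 508, 475, 396, 255 and 191 FPKM. Ndufa4, once assigned to complex I and now placed in complex IV, stood at 404, 360, 254, 137 and 95.7 FPKM.

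The subunits of complex IV that have tissue isoforms were present almost wholly as their widespread forms. Cox4i1 made up 99.9% to 100% of the Cox4 FPKM in each library, and the Cox4i2 isoform, known from lung, was at 1.23 FPKM in Ym1- monocytes, 0.912 in Ym1+ monocytes, 0.291 in naïve monocytes and listed at 0 in both neutrophil libraries. The muscle and testis isoforms Cox7b2, Cox8b and Cox8c were listed at 0 in all libraries, as was Ndufa4l2, and Cox6a2 was above 0 in naïve monocytes alone, at 0.334 FPKM. Cox7a1, a heart and muscle isoform, made up between 0.817% and 2.15% of the Cox7a FPKM. Cox6b2, a testis isoform, stood out within naïve monocytes, where it reached 16.6 FPKM or 4.04% of the Cox6b FPKM, against 5.13 FPKM in Ym1- monocytes, 8.36 in Ym1+ monocytes, 1.36 in neutrophils after LPS and 2.83 in naïve neutrophils.

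Complex V had the highest median level per length among the complexes, and its share of the members' FPKM was 32.9% in Ym1- monocytes, 32.1% in Ym1+ monocytes, 30.9% in naïve monocytes, 29.8% in neutrophils after LPS and 27.5% in naïve neutrophils. The accessory subunits of complex I made up 21.3%, 22.3%, 23.4%, 25.7% and 28.1% in the same order. Atp5b, the catalytic beta subunit, stood at 838, 670, 419, 298 and 164 FPKM. Atp5a1, the alpha subunit that forms the catalytic head with it, stood at 622, 508, 361, 165 and 77.0 FPKM. Atp5f1 and Atp5j were among the complex V genes least different between the cell types. Others differed more, such as Atp5o (-1.75) and Atp5d (-1.59) in naïve neutrophils against naïve monocytes. Atp5f1, subunit b, stood at 298, 264, 196, 201 and 150 FPKM, and Atp5j, coupling factor 6, at 186, 168, 125, 137 and 90.3 FPKM.

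Atp5g1, Atp5g2 and Atp5g3 encode the same mature subunit c, the proton-carrying ring of complex V, with different import sequences. Their summed FPKM was 690 in Ym1- monocytes, 564 in Ym1+ monocytes, 476 in naïve monocytes, 190 in neutrophils after LPS and 92.4 in naïve neutrophils. Atp5g2 gave the largest part in naïve monocytes (52.5%) and naïve neutrophils (46.7%). Its part was 41.0% in Ym1- monocytes, 40.8% in Ym1+ monocytes and 36.6% in neutrophils after LPS, where Atp5g3 was the largest with 47.3%. The Atp5g1 part was 15.7% in naïve and 21.5% in Ym1- monocytes, and 11.3% in naïve neutrophils and 16.1% after LPS, so it was higher after LPS in both cell types.

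**Figure D2:**
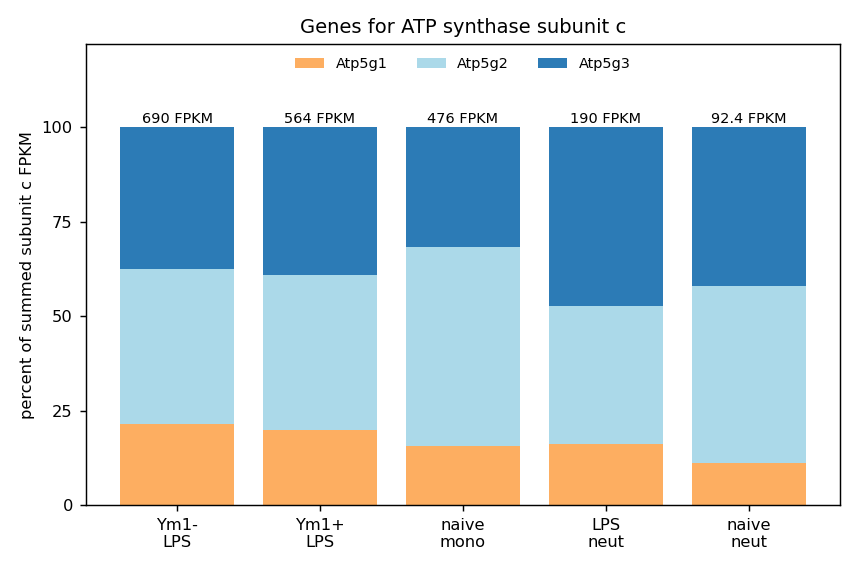
Share of each of the 3 subunit c genes in their summed FPKM (bars, percent of the sum) in the 5 libraries, with the summed FPKM above each bar. The Atp5g1 part is 11.3% in naïve neutrophils and 21.5% in Ym1- monocytes, and Atp5g3 is the largest part in neutrophils after LPS.

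After LPS, Ym1- monocytes held more of most respiratory gene transcripts than naïve monocytes. The median difference over 86 members was 0.51 on the log2 scale, against 0.00 over all genes. Of the 86, 77 were above 0, against 49.9% of all genes. Few reached 2-fold: 2 members were at least 2-fold higher, where the share over all genes was 2.86%, and 1 was at least 2-fold lower, against 4.72%. At 1.5-fold, 30 members were higher (34.9%, against 11.9% of all genes). The higher pair were Ndufaf2, with a difference of 1.65, and Cyc1, with 1.11. Atp5b (838 against 419 FPKM), Cycs (0.98) and Atp5g1 (0.98) stood just under the threshold, followed by the complex I accessory subunits Ndufb6 (0.96), Ndufa12 (0.93) and Ndufa5 (0.93). The median was 0.53 for core and 0.45 for accessory subunits of complex I, 0.50 for complex II, 0.62 for complex III, 0.50 for complex IV and 0.52 for complex V. Genes below 0 were Cox6b2, the 1 member past 2-fold, with -1.53, and, among others, Ndufa1 (-0.43), Cox7a2l (-0.39) and Ndufa6 (-0.31).

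Ym1+ monocytes lay between the Ym1- and naïve libraries. Against naïve monocytes their median difference was 0.26 over 85 members, against -0.06 over all genes. Of the 85, 73 were above 0, against 44.1% of all genes. No member was 2-fold higher or lower (2.59% and 4.51% of all genes were), and at 1.5-fold 9 were higher (10.6%, against 7.71%) and 3 lower (3.53%, against 13.3%). Ndufaf2 was highest with 0.95, followed by Cyc1 (0.76), Cycs (0.74) and Ndufa12 (0.73), and Cox6b2 (-0.92), Atp5sl (-0.65) and Cox7a2l (-0.63) were lowest.

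The comparison of both monocyte populations of LPS-treated mice asks whether Ym1 marks a difference in these genes. The median of Ym1+ minus Ym1- was -0.23 over 85 members and -0.06 over all genes. Below 0 were 79 of 85 members, against 58.1% of all genes. None was 2-fold apart in either direction, where 1.38% of all genes were higher and 1.18% lower, so the shift was shared by many members and small in each. At 1.5-fold 1 was higher (1.18%, against 4.34%) and 2 were lower (2.35%, against 5.93%). The lowest were Ndufaf2 (-0.70), Atp5sl (-0.60) and the complex III subunits Uqcr10 and Uqcr11 (-0.48 each), and the 9 complex III genes ran from -0.48 to -0.12. Among members past an FPKM of 10, only Ndufs4 (0.13), Ndufb7 (0.09), Ndufa1 (0.05) and Ndufa6 (0.01) were above 0, and below that level Cox6b2 (0.61) and Cox7a1 (0.53) were. The Ym1- library, with the highest levels, is also the shallowest, and the Ym1+ library carries the neutrophil transcripts described above, whose part in the shift was not tested. A shift below 0 was not particular to the members. The medians were -0.32 for cytosolic and -0.28 for mitochondrial ribosomal protein genes, -0.23 for the tricarboxylic acid cycle and 0.04 for glycolysis genes.

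**Figure D3:**
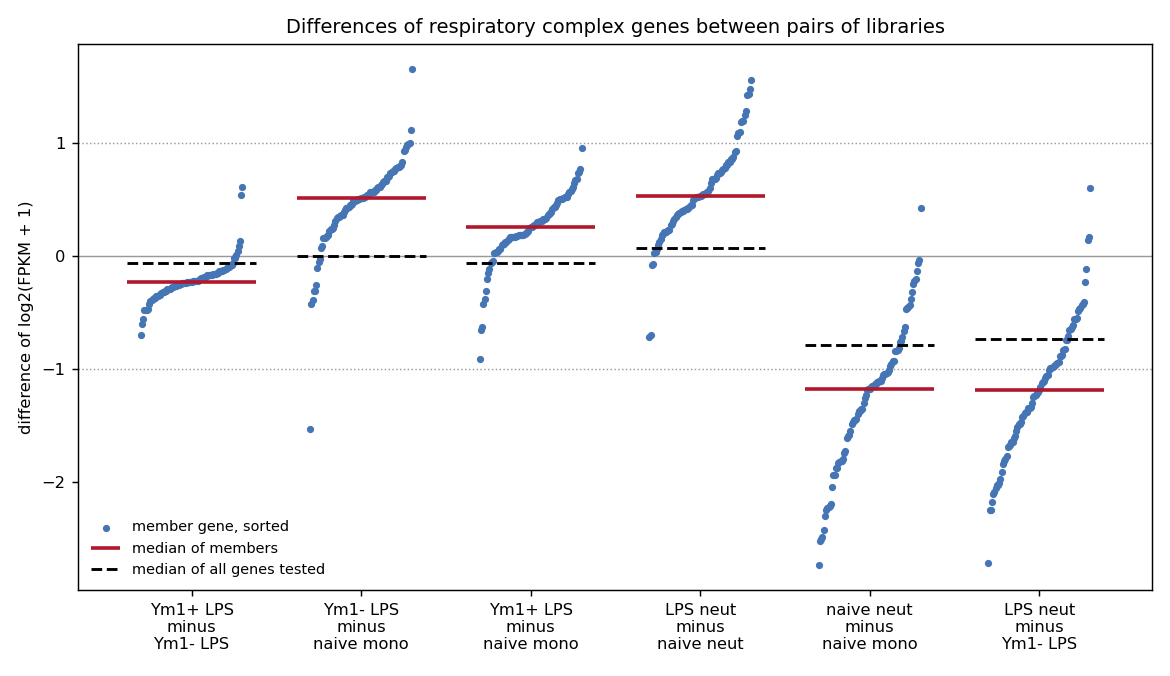
Differences of log2(FPKM + 1) of the members (blue points, sorted within each comparison) in the 6 pairs of libraries, with the median of members (red) and of all genes tested (dashed black); dotted lines mark 2-fold. The member median is above that of all genes in the 3 comparisons of LPS with naïve cells, by 0.53 against 0.07 in neutrophils, and below it in the others.

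Neutrophils after LPS also held more of these transcripts than naïve neutrophils, and more members passed 2-fold than in monocytes. The median difference over 82 members was 0.53, against 0.07 over all genes. Of the 82, 78 were above 0, against 54.3% of all genes. At least 2-fold higher were 12 members, or 14.6%, against 8.96% of all genes, and none was 2-fold lower, against 5.35%. At 1.5-fold 34 were higher (41.5%, against 20.4%) and 2 lower (2.44%, against 14.6%). Ndufa12 was at 54.2 FPKM after LPS and 17.9 in naïve cells, a difference of 1.55. Atp5g1 was at 30.6 and 10.4 FPKM (1.47), Ndufb2 at 21.6 and 7.43 (1.42) and Cycs at 27.7 and 11.2 (1.24). Ndufa5, Atp5g3, Uqcrb, Cox7b, Atp5a1 and Ndufc1 had differences between 1.09 and 1.28, so the 2-fold genes came from complexes I, III, IV and V and cytochrome c, with none from the core of complex I or from complex II. The lowest was Ndufs7, with -0.71.

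These LPS differences are those of single libraries, and other genes differed between the same libraries. The 17 proliferation genes summed to 519 FPKM in naïve neutrophils and 996 FPKM after LPS, with 17 of 17 above 0, and to 3775 FPKM in the Ym1-, 3652 in the Ym1+ and 2623 in the naïve monocyte library, with 15 of 17 above 0 in Ym1- against naïve monocytes. The 8 azurophil granule genes, which neutrophil precursors express, summed to 63.2 FPKM in naïve neutrophils and 916 FPKM after LPS, with 7 of 7 tested above 0. In monocytes they summed to 2786 FPKM in the Ym1- and 2753 in the naïve library, with 4 of 7 above 0 and Mpo at -1.24, Elane at -1.18 and Nkg7 at -1.56, so there they did not differ in 1 direction. The part of either list in the members' differences was not tested.

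The LPS differences of the members in monocytes (Ym1- against naïve) and in neutrophils come from 4 separate libraries. Of 82 members present in both, 73 were above 0 in both, 2 were below 0 in both and 7 had opposite signs. Over 9074 genes of all kinds these counts were 3467, 2905 and 2702. Over the 82 members Pearson's r was 0.69 and Spearman's rho 0.66, against 0.41 and 0.54 over the 9074 genes. Genes are not independent replicates, so these values are a description. Ndufa12, Atp5g1, Cycs and Ndufa5 were among the 10 highest members in both. So was Ndufaf2, whose neutrophil levels (2.23 FPKM after LPS and 0.206 in naïve cells) rested on about 9.63 and 1.02 fragments.

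**Figure D4:**
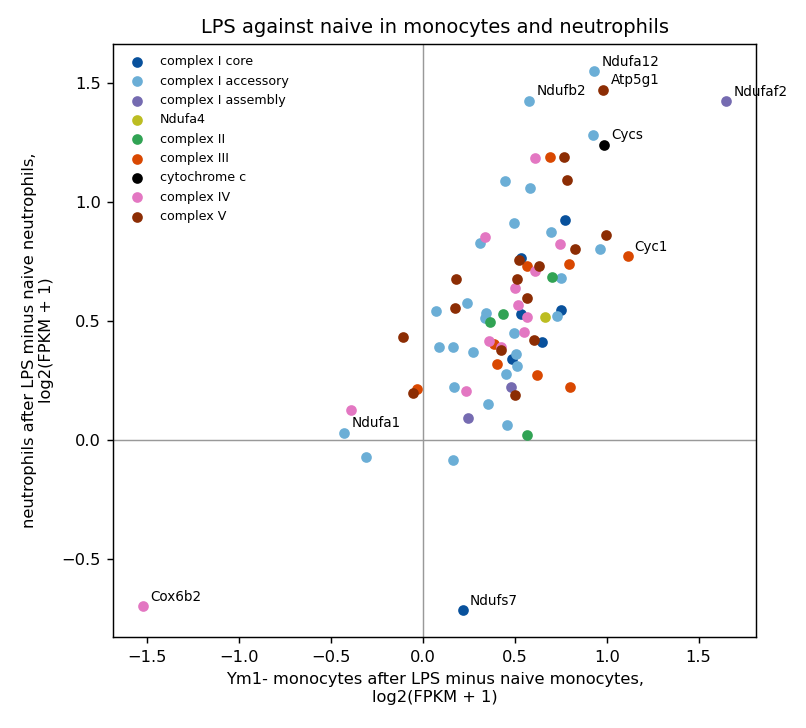
LPS minus naïve difference of log2(FPKM + 1) for each member in monocytes (x axis, Ym1- library) and neutrophils (y axis), coloured by complex. Of 82 points, 73 lie above 0 on both axes (of 9074 genes of all kinds, 3467 do), and Ndufs7 lies above 0 in monocytes and at -0.71 in neutrophils.

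Neutrophils held less of nearly all respiratory gene transcripts per library than monocytes, with and without LPS. In naïve cells the median difference over 85 members was -1.18, against -0.79 over all genes. Of the 85, 84 were below 0, against 72.8% of all genes. At least 2-fold lower were 59 members, or 69.4%, against 42.7% of all genes, and none was 2-fold higher, against 10.8%. After LPS, with Ym1- monocytes as the reference, the median over 85 members was again -1.18, against -0.74 over all genes, with 51 members 2-fold lower (60.0%, against 40.8%) and none higher (against 11.0%). At 1.5-fold 1 was higher there (1.18%, against 16.0%). Both neutrophil libraries were below all 3 monocyte libraries in 75 of 86 members, against 59.5% of all genes.

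The size of this difference depends on the scaling. With median-of-ratios scaling the median over all genes moved from -0.79 to -0.03 and that over members from -1.18 to -0.37 in naïve cells. The number of members 2-fold lower was then 22 (25.9%, against 24.2% of all genes), 1 was 2-fold higher (against 22.3%), and 19 of 85 were above 0 (against 49.0%). After LPS the member median was -0.39, against -0.01 over all genes, with 14 members 2-fold lower (16.7%, against 21.3%) and 1 higher (against 22.1%). Members with both neutrophil libraries below all monocyte libraries were then 33 of 86, against 36.9% of all genes, and 85 with TPM, against 69.2%. With this scaling 48.0% rather than 20.2% of all genes past 2-fold in naïve cells were on the higher side. With TPM the member median was -1.58 in naïve cells, against -1.15 over all genes, and -1.65 after LPS, against -1.13. With FPKM, TPM and median of ratios the member median was thus below that of all genes and no more than 1 member was 2-fold higher. The share of members 2-fold lower was well above that of all genes with FPKM and with TPM (84.7% against 55.0% in naïve cells), whereas with median of ratios it was close to it in naïve cells and below it after LPS.

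Among members past an FPKM of 10, those furthest below monocytes in naïve neutrophils were genes of complexes I, IV and V, cytochrome c and Atp5sl, which encodes no subunit. Atp5g1 stood at 10.4 FPKM against 74.7 (a difference of -2.73, or -1.93 with median-of-ratios scaling), Ndufab1 at 5.10 against 34.1 (-2.52 and -1.76) and Atp5g2 at 43.2 against 250 (-2.50 and -1.67). Atp5sl, Ndufa12, Ndufc1, Cycs, Atp5a1 and Cox6b2 had differences between -2.42 and -2.20. All of these stayed at least 2-fold lower with the other scaling. After LPS, Ndufaf2 (-2.71), Atp5g1 (-2.24), Atp5sl (-2.17) and Ndufab1 (-2.10) were lowest against Ym1- monocytes. With FPKM, Ndufv3 was the only member above naïve monocytes in naïve neutrophils (0.42), and after LPS it was joined by Ndufb7 and Ndufa1 (0.59, 0.17 and 0.14). With median-of-ratios scaling more members were above 0 in naïve neutrophils, among them Ndufv3 (1.25), Ndufa13 (0.80) and Ndufb7 (0.77).

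The groups differed in how far they were lower. In naïve cells the core of complex I had a median of -1.48 and complex V of -1.35, complexes II and III had -1.26 and -1.18, the accessory subunits of complex I had -1.18 and complex IV had -1.07. After LPS these medians were -1.64, -1.32, -1.32, -1.23, -0.99 and -0.97. With median-of-ratios scaling in naïve cells they were -0.65, -0.51, -0.43, -0.34, -0.38 and -0.26, so among these 6 groups the complex I core stood lowest and complex IV highest in each of the 3 settings. The 7 core genes were all below 0 in all 3, though with median-of-ratios scaling Ndufs1 (-0.003) and Ndufs7 (-0.01) were so by little. With FPKM in naïve cells, accessory genes ran from -2.52 to 0.42. The tested genes of the other complexes were all below 0 there, as those of the core were. In the cell type comparisons, which share no library, 81 of 84 members were below 0 both in naïve cells and after LPS. Of 10397 genes of all kinds, 7076 were. Pearson's r was 0.86 over the members and 0.88 over the 10397 genes.

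In 3 further comparisons other gene lists were set beside the members. In naïve neutrophils against naïve monocytes the medians of the other mitochondrial lists were below 0, as was that of the members. The 16 genes of the tricarboxylic acid cycle had medians of 0.48 (Ym1- against naïve monocytes), 0.61 (LPS against naïve neutrophils) and -1.23 (naïve neutrophils against naïve monocytes), with 0, 0 and 10 genes 2-fold lower and 2, 2 and 0 higher. Fh1, fumarase, was the lowest in the last of these, at 56.3 FPKM in naïve monocytes and 4.26 in naïve neutrophils (-3.45), and Mdh2 was above 0 (0.67). Of 12 carriers and coupling genes, 11, 11 and 0 were above 0 in the 3 comparisons. In the last they ran from -5.17 for the ADP/ATP carrier Slc25a4 to -0.13 for Vdac2. Slc25a4 stood at 141 FPKM in Ym1- monocytes, 104 in Ym1+ monocytes, 74.1 in naïve monocytes, 3.68 in neutrophils after LPS and 1.09 in naïve neutrophils. The 76 mitochondrial ribosomal protein genes had medians of 0.54, 0.51 and -1.64. The 77 cytosolic ribosomal protein genes had 0.23, 1.21 and -2.68, further from 0 than the members in both neutrophil comparisons. The 13 assembly genes of cytochrome oxidase had 0.28, 0.24 and -1.04, with none 2-fold higher in these comparisons and 7 lower in the last. With median-of-ratios scaling the medians in naïve neutrophils against naïve monocytes were -0.41 for the tricarboxylic acid cycle, -0.88 for carriers and coupling genes, -0.86 for mitochondrial and -1.85 for cytosolic ribosomal proteins and -0.31 for the assembly genes, where that of the members was -0.37.

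The 19 glycolysis genes had medians of 0.63 in Ym1- against naïve monocytes and 0.51 in neutrophils after LPS against naïve, close to those of the respiratory genes. In naïve neutrophils against naïve monocytes, however, their median was 0.10, with 3 genes 2-fold higher and 4 lower, and its sign depends on the scaling: it was 0.88 with median of ratios, with 9 higher and 2 lower, and -0.28 with TPM, with 2 higher and 5 lower. Under each of the 3 it was above that of the members. The hexokinase gene Hk3 stood at 62.8 FPKM in naïve monocytes and 233 in naïve neutrophils, and Slc16a3, a lactate transporter, at 29.3 and 118 FPKM. With FPKM the 4 genes 2-fold lower were Ldhb (-2.15), Pfkm (-1.68), Pfkl (-1.52) and Pfkp (-1.46). Ldha, for lactate dehydrogenase, stood at 516 FPKM in Ym1- monocytes, 407 in Ym1+ monocytes, 196 in naïve monocytes, 669 in neutrophils after LPS and 336 in naïve neutrophils.

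**Figure D5:**
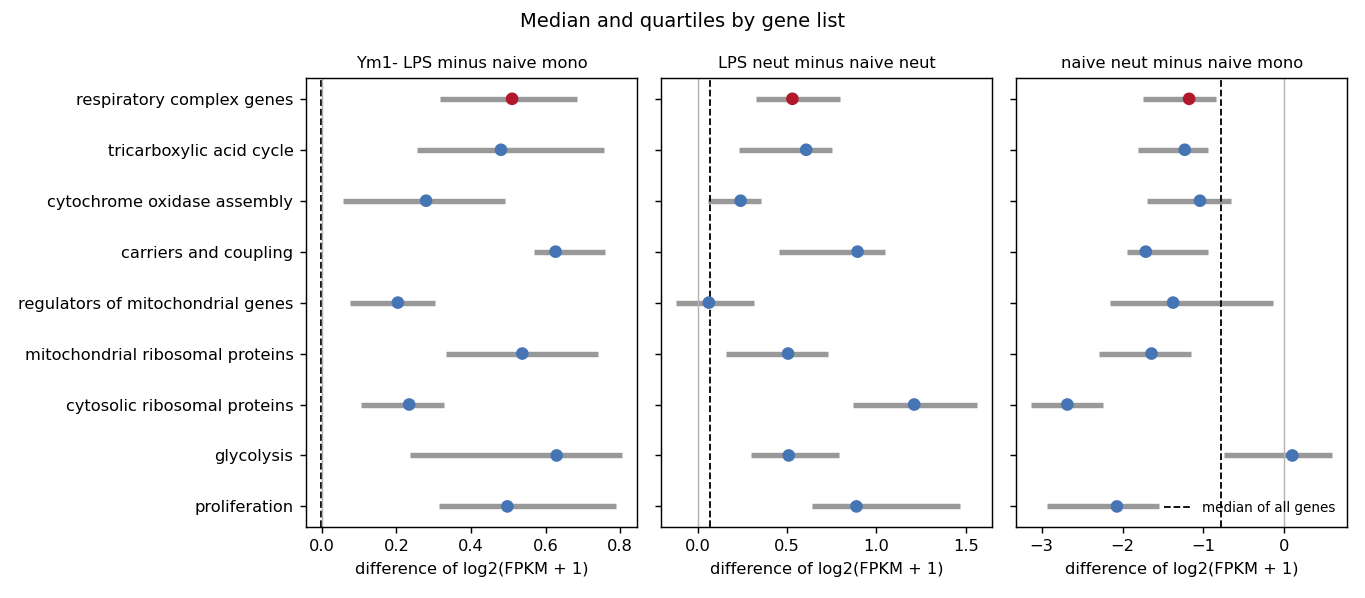
Median (point) and quartiles (bar) of the difference of log2(FPKM + 1) for the respiratory complex genes (red) and 8 other gene lists (blue) in 3 comparisons, with the median of all genes dashed; the x axes differ in range. In naïve neutrophils against naïve monocytes the glycolysis median is 0.10 (-0.28 with TPM) and that of the respiratory genes -1.18.

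Genes for regulators of mitochondrial transcription differed less than the members between LPS and naïve libraries. Of 12 such genes, 10 were tested in Ym1- against naïve monocytes (median 0.20, with 9 above 0) and 8 in LPS against naïve neutrophils (median 0.06, with 4 above 0), and none was 2-fold apart in either. Some were at low FPKM, where the added 1 makes differences smaller. Tfb1m, at 1.36 FPKM in neutrophils after LPS and 0.521 in naïve neutrophils, had a difference of 0.63. With TPM the monocyte median was 0.09, with 7 of 11 above 0. Tfb1m (0.84) and Pprc1 (0.64) were highest in monocytes. Nrf1 stood at 24.4 FPKM in Ym1- monocytes, 21.8 in Ym1+ monocytes, 23.4 in naïve monocytes, 13.7 in neutrophils after LPS and 14.6 in naïve neutrophils. Tfam, for the mitochondrial transcription factor A, stood at 9.09, 6.40, 8.07, 1.84 and 1.30 FPKM, and Ppargc1a was listed at 0 in all 5 libraries. The members with and without the NRF1 motif in their promoter had medians of -1.45 (n = 10) and -1.14 (n = 62) in naïve neutrophils against naïve monocytes, and of 0.54 and 0.50 in Ym1- against naïve monocytes.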

How the data were processed

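The authors deposited FPKM values for 23234 gene symbols in each of 5 libraries. Per the submitters' processing notes, Cufflinks 2.1.1, TopHat2 2.0.8 and the mm9 build were used. Their options and the annotation are not stated in what was read here, nor is the treatment of reads shared with pseudogene copies, of which many respiratory genes have some. FPKM was used as deposited, with no count model. In 6 comparisons, log2(FPKM + 1) of one library was subtracted from that of the other for genes that reached 1 FPKM in either, and genes at least 2-fold apart on this scale were counted, with Python 3.11.15, numpy 2.4.6, pandas 2.3.3, scipy 1.17.1 and matplotlib 3.10.9. Named were, per comparison, up to 10 members with the largest difference in each direction that reached 10 FPKM and were above 0 in both libraries, with the 3 most abundant per complex, the complex I core and isoform genes, and 2 to 4 genes of other lists. Symbols described outside this rule were chosen after their values were seen (Ndufa13, Atp5f1, Atp5j, Atp5o, Atp5d, Ndufs5, Uqcrfs1, Ldhb, Pfkm, Pfkl and Pfkp). One gene that the rule names is not reported here. Members and lists were chosen with earlier results of these data known. The counts were tested on simulated data. Alternatives were another pseudocount, filter, threshold or scale (TPM, median of ratios) and, added after seeing the data, subunit genes only and the order of the libraries under both scales. Depth was estimated with GENCODE transcript lengths. Promoters are RefSeq's of GRCm38.p6, to which all 92 symbols were matched, 4 by an older name, and no coordinates of the files were used.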

Additional observations from a re-analysis of the deposited data

Results flagged for a closer look

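In 7 members the LPS difference had opposite signs in monocytes (Ym1- against naïve) and neutrophils, and the gap between the 2 differences (monocytes minus neutrophils, log2) was not tested. Ndufs7 had the widest gap, 0.93, with levels of 70.6 FPKM in Ym1- and 60.6 in naïve monocytes against 20.0 in neutrophils after LPS and 33.5 in naïve neutrophils. The gap was -0.54 for Atp5e, -0.52 for Cox7a2l, -0.46 for Ndufa1, -0.25 for Atp5sl, 0.25 for Ndufa7 and -0.24 for Uqcrh. For Ndufa1 and Ndufb7 the difference between neutrophils and monocytes was below 0 in naïve cells and above 0 after LPS, with gaps (naïve minus LPS) of -0.46 and -0.23, also not tested.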

How the results depend on the processing

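With 1 library per condition no error between replicates is known, and depth limits low members such as Ndufaf2 in neutrophils. No paired analysis was possible, as each condition had 1 library. No member reported as 2-fold apart changed sign under any alternative. With median-of-ratios scaling the median became -0.37 and the members 2-fold lower 22, with 1 higher, in naïve neutrophils against naïve monocytes, and -0.39, 14 and 1 in neutrophils against Ym1- monocytes after LPS; in Ym1- against naïve monocytes 5 were higher. A threshold of 1.5-fold gave 1 higher and 2 lower in Ym1+ against Ym1- monocytes, 30 higher in Ym1- and 9 higher and 3 lower in Ym1+ against naïve monocytes, 34 higher and 2 lower in neutrophils after LPS against naïve, and 1 higher in neutrophils against Ym1- monocytes. A pseudocount of 0.1 gave 1 higher in Ym1+ against naïve monocytes and 1 lower in neutrophils after LPS against naïve. Subunit genes only left 1 higher in Ym1- against naïve monocytes. All other counts of members past the threshold and all other medians over all members, in the 6 comparisons, stayed within 1.5-fold of those reported, including those with TPM, with a minimum FPKM of 5 or none, and without members listed at 0. This does not extend to the orders of libraries and the other gene lists, which the report gives with their values under other scalings: members in the order of all 5 libraries went from 62 to 25 and those with both neutrophil libraries lowest from 75 to 33 with median of ratios, and the glycolysis median in naïve neutrophils went from 0.10 to -0.28 with TPM. For the medians of the monocyte comparisons and of LPS against naïve neutrophils, a change of sign could pass the 1.5-fold margin. With TPM and median of ratios the member medians were -0.19 and -0.17 in Ym1+ against Ym1- monocytes. They were 0.43 and 0.53 in Ym1-, and 0.22 and 0.34 in Ym1+, against naïve monocytes. Of 88 differences of single members, 27 moved with median-of-ratios scaling, 1 with the other pseudocount and 1 with TPM.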
